A study of Mus musculus with 15 samples.

Results

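Major histocompatibility complex (MHC) class II molecules present peptides from endosomes to CD4+ T cells, and B cells carry them so that they can receive T cell help. CIITA, the class II transactivator, is the coactivator that switches the whole gene set on. H2-A and H2-E are the peptide-binding heterodimers, CD74 (the invariant chain) fills their groove on the way to the endosome, H2-DM exchanges the remnant of CD74 for peptide, and H2-O restrains H2-DM in B cells. Loss of class II expression is a known part of plasma cell differentiation, in which Blimp-1, encoded by Prdm1, represses Ciita.

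The transcripts described here are the 10 genes of this set: Ciita, H2-Aa, H2-Ab1, H2-Eb1, Cd74, H2-DMa, H2-DMb1, H2-DMb2, H2-Oa and H2-Ob. They were chosen by symbol, all 10 had exactly 1 row among the 51912 identifiers of the deposited table, and all 10 passed the filter on low counts that left 15692 genes for testing. The libraries came from wild-type mouse B cells with no further treatment named, cultured over 6 days together with 40LB cells, a fibroblast feeder line that supplies CD40 ligand and BAFF, and with 100 ng/ml of IL-4. The day 6 group (D6) is the unsorted culture at that point. Cells of the other 4 groups were lifted off the feeders, kept 2 more days without stimulation and sorted at day 8 as IgE iGC, IgG1 iGC, IgE PC and IgG1 PC, where PC are plasma cells and iGC is the labels' name for the cells of each isotype that were not PC. Each group had 3 biological replicates; the mouse strain and the sort gates are not given in the sources used here, and all cells were made in culture.

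Of the 10 genes, 8 lie within 224.3 kb of the MHC on chromosome 17 (chr17:34092340-34316674, GRCm38), in the order H2-Oa, H2-DMa, H2-DMb2, H2-DMb1, H2-Ob, H2-Ab1, H2-Aa and H2-Eb1. Ciita (chr16:10480059-10528418) and Cd74 lie elsewhere. Class II promoters are known for a conserved module in which an X box, bound by the RFX complex, stands upstream of a Y box, an inverted CCAAT box bound by NF-Y, and CIITA docks on the factors bound there. RefSeq windows of 300 bases, 250 before and 50 after the annotated start on GRCm38.p6, were at hand for 7 of the 10 genes. The Y box core GATTGG, read on both strands, was in a window of all 7 (18.2% of 27025 genes with a window). An X-like core CNNNNAAC lying 10 to 35 bases upstream of GATTGG, both strands searched, was found in 6 of the 7, against 1.43% of all genes with a window. That pattern was written after these windows had been read, so the count only describes them. The stretches of these 6 genes are shown as a description, and a link between the pair and the changes in level given below was not tested. The X-like core and the Y core are in capitals, and all stretches run 5′ to 3′ on the gene's strand.
H2-Aa, chr17:34287855-34287919, minus strand: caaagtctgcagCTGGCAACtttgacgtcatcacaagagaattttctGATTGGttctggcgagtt
H2-Eb1, chr17:34305761-34305824, plus strand: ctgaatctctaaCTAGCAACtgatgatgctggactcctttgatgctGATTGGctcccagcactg
H2-DMb1, chr17:34153082-34153146, plus strand: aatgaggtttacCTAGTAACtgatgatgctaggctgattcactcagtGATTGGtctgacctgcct
H2-DMb2, chr17:34145111-34145175, plus strand: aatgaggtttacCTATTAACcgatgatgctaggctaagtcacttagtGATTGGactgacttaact
H2-Oa, chr17:34092288-34092352, plus strand: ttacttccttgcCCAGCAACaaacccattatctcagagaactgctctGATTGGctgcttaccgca
H2-Ob, chr17:34238803-34238864, plus strand: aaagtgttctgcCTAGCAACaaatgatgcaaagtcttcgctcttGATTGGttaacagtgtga
Between the cores as marked lay 24 to 27 bases in these 6 genes; the H2-Oa stretch also holds a second X-like core, not marked, which overlaps the marked one and ends 23 bases before the Y core. The Y core began 44 to 91 bases before the RefSeq start. H2-DMa held GATTGG without the X-like core at that distance. None of the 11 class I presentation genes with a window, the list described further on, held the pair (1.43% of all genes), although 6 held GATTGG. Because the pattern was written after the class II windows had been read, this count does not show whether class I promoters have an X and Y box module.

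Deposited expected counts summed to between 17.7 M and 54.1 M per library, and the smallest count of any of the 10 genes in any library was 663, for H2-Oa in IgE PC, so counting error was small for all of them. Plasma cell markers summed to 9102 to 18770 CPM (the usual depth-scaled count, here with library sizes adjusted by the trimmed mean of M-values, TMM) in the PC libraries and to at most 740.9 CPM in the others. The 5 B cell markers Ms4a1, Pax5, Cd79a, Cd79b and Cd22 were present throughout and summed to 7803 to 8076 CPM in iGC cells, 3900 to 4150 at D6, 4279 to 4458 in IgG1 PC and 3356 to 3523 in IgE PC. Of the 9 markers of macrophages and dendritic cells, which also carry class II, Clec9a was at 0 in every library, and the sums ran from 11.2 CPM in an IgE PC library to 129.3 in an IgG1 iGC library. Csf1r, which defines macrophages, reached at most a group mean of 0.183 CPM, at D6. Flt3 and Zbtb46, known from dendritic cells and their precursors, made up most of the sums: Flt3 averaged 94.5 CPM in IgG1 iGC, 45.8 in IgE iGC, 43.1 in IgG1 PC, 19.9 at D6 and 8.86 in IgE PC, and Zbtb46 29.0 at D6, 23.5 in IgG1 iGC, 14.2 in IgE iGC, 11.8 in IgG1 PC and 2.48 in IgE PC. The 8 fibroblast feeder markers summed to 240.2 to 365.4 CPM at D6, 74.2 to 193.3 in IgG1 PC and at most 75.7 in the other groups. The 6 T cell markers summed to at most 2.24 CPM anywhere.

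**Figure D1:**
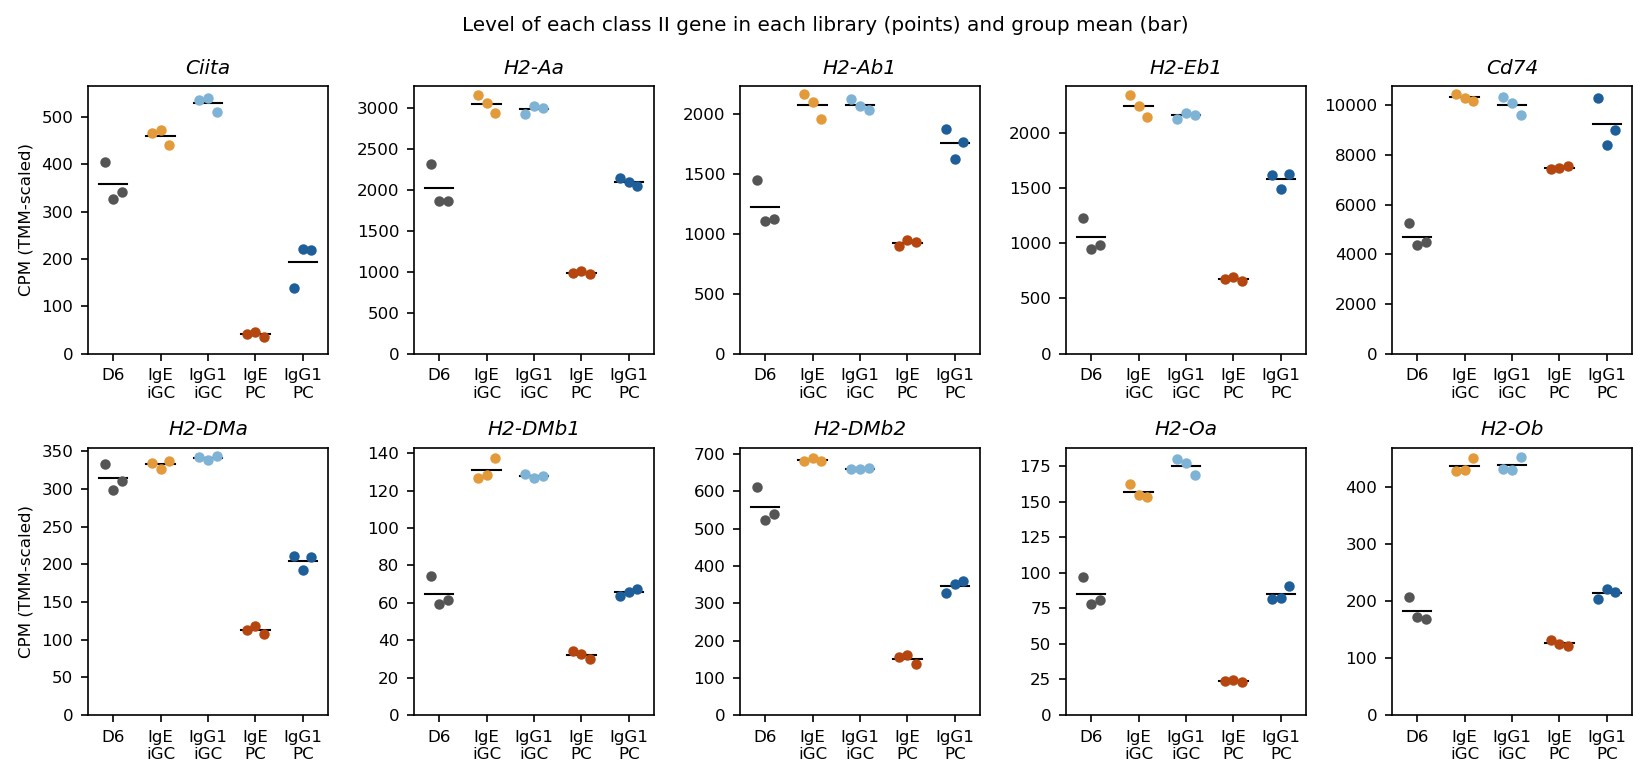
TMM-scaled CPM (linear axis from 0) of the 10 class II genes in each of the 15 libraries; points are libraries and bars are means of 3. IgE PC held the lowest levels in every panel but that of Cd74, where D6 was lowest, and the highest mean was that of an iGC group in each.

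Ciita was the member whose level differed most between groups. It stood at 467.5, 472 and 442 CPM in IgE iGC and at 537, 541 and 511 in IgG1 iGC. In plasma cells it was 42.2, 45.4 and 35.98 CPM in IgE PC and 138.8, 222 and 219 in IgG1 PC. At D6 it was 405.5, 326 and 342 CPM. The order was thus IgG1 iGC, IgE iGC, D6, IgG1 PC and IgE PC, with no overlap between any of these groups. The fall from iGC to PC was 11.2-fold in IgE (log2 fold change -3.48, SE 0.16; edgeR quasi-likelihood test, Benjamini-Hochberg adjusted p = 3.65e-11) and 2.74-fold in IgG1 (-1.45, SE 0.14, adjusted p = 7.24e-07). IgG1 PC replicate 1 was the low library; without it the IgG1 change was -1.27 and was still called. Immunoglobulin genes took 41.1% of the TPM (a relative transcript abundance that allows for transcript length as well as depth) of that library and 33.4% and 34.0% in the other IgG1 PC libraries. In bulk libraries, fewer cells with a transcript and less transcript per cell cannot be told apart, here and below.

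H2-Aa and H2-Ab1 encode the alpha and beta chains of H2-A. H2-Aa was 3159, 3055 and 2943 CPM in IgE iGC and 979, 1013 and 969.8 in IgE PC. In IgG1 it was 2926, 3025 and 3003 CPM in iGC and 2145, 2092 and 2049 in PC. The PC libraries lay below the iGC libraries in both isotypes, by 3.09-fold in IgE (log2 fold change -1.63, SE 0.08) and 1.42-fold in IgG1 (-0.51, SE 0.07). H2-Ab1 went from 2172, 2104 and 1962 CPM to 898, 951 and 934 in IgE, and from 2130, 2071 and 2034 to 1878, 1624 and 1769 in IgG1. The change in H2-Ab1 was -1.17 (SE 0.09) in IgE and -0.24 (SE 0.09, edgeR adjusted p = 0.0279) in IgG1. That IgG1 call was the least stable of the 9: it was lost in a fit of the IgG1 groups alone (adjusted p = 0.0508) and without any of 4 libraries, IgG1 iGC replicate 1 or 2 or IgG1 PC replicate 2 or 3 (adjusted p from 0.052 to 0.0796). H2-Eb1, the beta chain of H2-E, was 2345, 2252 and 2152 CPM in IgE iGC and 679, 694 and 658 in IgE PC, a change of -1.73 (SE 0.08). In IgG1 it was 2133, 2185 and 2167 CPM in iGC and 1621, 1498 and 1628 in PC, a change of -0.45 (SE 0.08). H2-Ea, which would encode the alpha chain of H2-E, had only 0 to 4 counts in every library.

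Cd74 (chr18:60803848-60812652, GRCm38) was the most abundant member in every group and the one that changed least between iGC cells and PC. IgE iGC held 10470, 10290 and 10190 CPM and IgE PC 7414, 7480 and 7564, a fall of 1.38-fold (log2 fold change -0.46, SE 0.08, edgeR adjusted p = 9.88e-05). IgG1 iGC held 10330, 10090 and 9607 CPM and IgG1 PC 10310, 8399 and 8988. The IgG1 groups overlapped, and the change of -0.12 (95% interval -0.29 to 0.05, edgeR adjusted p = 0.221) did not pass the test. It passed without IgG1 PC replicate 1 (-0.21, adjusted p = 0.0149) and under total-count scaling (-0.36).

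H2-DMa encodes the alpha chain of H2-DM, and H2-DMb1 and H2-DMb2 its beta chains. H2-DMa was 334.8, 325.8 and 337.6 CPM in IgE iGC and 112.6, 117.9 and 107.5 in IgE PC. The IgG1 values were 342, 338 and 343 CPM in iGC and 210.5, 192 and 209.7 in PC. H2-DMb2, the more abundant beta chain, was 682, 690.4 and 682.5 CPM in IgE iGC and 157, 160.5 and 136.6 in IgE PC. It was 659, 660.4 and 664 CPM in IgG1 iGC and 327, 351 and 359.5 in IgG1 PC. Replicates of the iGC groups lay within a few percent of each other, and no PC library reached them. H2-DMb1 averaged 130.8 ± 5.97 CPM in IgE iGC and 32.3 ± 2.02 in IgE PC, and 127.9 ± 1.14 in IgG1 iGC and 65.6 ± 1.87 in IgG1 PC (mean ± SD, n = 3 each). The H2-DM genes changed by -1.56 (H2-DMa), -2.02 (H2-DMb1) and -2.18 (H2-DMb2) in IgE and by -0.74, -0.96 and -0.93 in IgG1 on the log2 scale. H2-DMb1 and H2-DMb2 share part of their sequence. Of the 76-base stretches of H2-DMb1 transcripts, 15.7% also occur in H2-DMb2. Of those of H2-DMb2, 15.9% also occur in H2-DMb1 or in other genes. Both had fractional counts in all 15 libraries, so how their reads were divided is uncertain. The other 8 genes shared no 76-base stretch with another annotated gene, although H2-Eb1 had fractional counts in 10 libraries and H2-Ab1 in 5.

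H2-Oa and H2-Ob encode the chains of H2-O. H2-Oa was 162.7, 154.8 and 153.1 CPM in IgE iGC and 24.2, 24.3 and 23.1 in IgE PC, which was 6.57-fold lower and second only to Ciita among the 10 genes. In IgG1 it was 180.2, 177 and 168 CPM in iGC and 81.5, 82.2 and 90.6 in PC, 2.07-fold lower. H2-Ob was 429.4, 429.8 and 451 CPM in IgE iGC and 131, 125.2 and 121.8 in IgE PC, and 432, 431.5 and 453.6 in IgG1 iGC against 204.5, 222 and 215 in IgG1 PC. The changes in H2-Ob were -1.79 (SE 0.07) in IgE and -1.04 (SE 0.07) in IgG1.

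Counted over the set, 10 of 10 genes were called lower in IgE PC than in IgE iGC, where 33.6% of all genes tested were called lower, and 9 of them, all but Cd74, by at least 2-fold (13.6% of all genes). All 3 IgE PC libraries lay below all 3 IgE iGC libraries for each of the 10 (37.6% of all genes), and the same held in IgG1 for each but Cd74 (31.2%). In IgG1 9 of 10 were called lower in PC (29.0% of all genes), and 3, Ciita, H2-Oa and H2-Ob, by at least 2-fold (5.02%). The median log2 fold change of the 10 was -1.76 in IgE, beside -0.08 over all genes tested, and -0.84 in IgG1, beside 0.01. Genes listed as markers of other cells moved as well. All 6 tested markers of macrophages and dendritic cells were called lower in IgE PC (33.6% of all genes), with a median of -2.81. Of these, Adgre1, Lyz2 and Itgax were near 0, with means of 0.63, 0.40 and 0.04 CPM in IgE iGC. In IgG1 PC 4 of the 6 were called lower (29.0% of all genes) and 1 higher (30.1%), with a median of -0.88. Of the 7 tested feeder markers, 1, Thy1 (-1.775), was called lower in IgE PC (33.6%) and 5 higher in IgG1 PC (30.1%). Thy1 was not among those 5 and was not called in IgG1 (0.078). Which cells carried these transcripts was not tested, nor was the part of such cells in the class II changes.

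**Figure D2:**
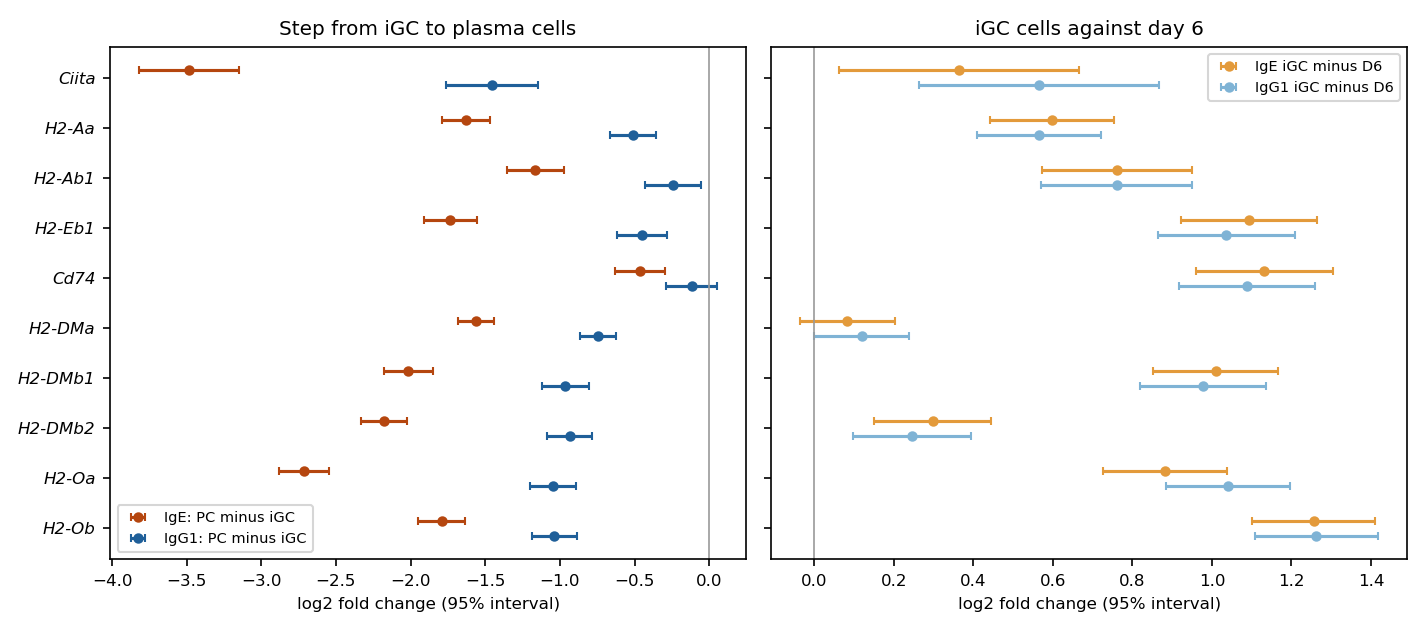
Log2 fold changes (points) with 95% intervals (bars) from the edgeR fit for the 10 genes: PC minus iGC in each isotype on the left, iGC minus D6 on the right, on separate x axes. On the left every IgE point lies further below 0 than the IgG1 point of the same gene, while on the right the intervals of both isotypes overlap for every gene.

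The size of the step was then compared between isotypes with the interaction term, the IgE change minus the IgG1 change. It was called negative for 10 of 10 genes (23.1% of all genes tested), so each was lowered further in IgE. The interaction was -2.03 (SE 0.20, edgeR adjusted p = 2.77e-06) for Ciita, -1.67 (SE 0.11) for H2-Oa, -1.28 for H2-Eb1, -1.24 for H2-DMb2, -1.12 for H2-Aa and -1.05 for H2-DMb1. It was -0.92 for H2-Ab1, -0.82 for H2-DMa and -0.76 for H2-Ob. Cd74 had the smallest, -0.35 (SE 0.11, edgeR adjusted p = 0.0217), which lost its call without IgE PC replicate 3 (adjusted p = 0.0501) or IgG1 iGC replicate 3 (0.0577). The interaction was also called negative for all 6 tested macrophage and dendritic cell markers (median -1.99). Of these, Itgax (-4.80), Lyz2 (-3.62) and Adgre1 (-2.105) were near 0 in IgE PC, with means of 0, 0.05 and 0.09 CPM. Itgam (-1.88) averaged 4.57 CPM in IgE iGC and 0.48 in IgE PC. Flt3 (-1.24) and Zbtb46 (-1.54), which made up most of the marker sums, had smaller interactions than the other tested markers. Both values lay within the range of the 10 class II genes. Feeder markers were called negative as well, in 6 of the 7 tested (median -2.66). Which cells carried these transcripts was not tested, nor was the part of such cells in the class II interaction.

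Set side by side, the plasma cells of the isotypes did not overlap in any of the 10 genes: all 3 IgE PC libraries lay below all 3 IgG1 PC libraries, as for 31.2% of genes tested. All 10 were called lower in IgE PC (30.7% of all genes), from 1.23-fold for Cd74 (log2 fold change -0.30, SE 0.08, edgeR adjusted p = 0.00434) to 4.70-fold for Ciita (-2.23, SE 0.15). This comparison shares its PC libraries with the interaction, so the results are not separate evidence. Other measures differed too. The plasma cell marker Sdc1 was 311, 317 and 350.0 CPM in IgE PC and 207, 148 and 155.5 in IgG1 PC. Of the 6 plasma cell markers, 4 were called higher in IgE PC (27.4% of all genes) and 2 were not called. The B cell marker sums given above were higher in IgG1 PC. Of those 5 markers, 2, Pax5 (-1.16) and Cd79a (-0.81), were called lower in IgE PC (30.7% of all genes). The other 3 were not called. Feeder marker sums were also higher in IgG1 PC. So were those of macrophage and dendritic cell markers (44.2 to 68.5 CPM, against 11.2 to 12.9 in IgE PC). The part of these measures in the class II difference was not tested.

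In iGC cells none of the 10 genes was called between isotypes by edgeR (3.87% of all genes were called in either direction) or by DESeq2; at an unadjusted p under 0.05 there was 1, H2-Oa. Its log2 difference, IgE minus IgG1, was -0.16 (95% interval -0.31 to -0.01, edgeR adjusted p = 0.312). Ciita had the widest interval, -0.50 to 0.10 around -0.20. Of the 10 genes 3, Ciita, H2-DMa and H2-Oa, had all IgE iGC libraries below all IgG1 iGC libraries (13.1% of genes tested), 1, H2-DMb2, had them all above (14.4%), and 6 overlapped. In a fit of the iGC groups alone, 2 genes, Ciita (-0.21, adjusted p = 0.00765) and H2-Oa (-0.17, 0.0215), were called lower in IgE. The macrophage and dendritic cell marker sums were 63.2 to 70.5 CPM in IgE iGC and 124 to 129.3 in IgG1 iGC. The intervals of the other 8 class II genes lay within 0.23 of 0 on either side.

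Compared with the culture at day 6, iGC cells held more class II transcript. In IgE iGC 9 of 10 genes were called higher than at D6 (32.8% of all genes) and in IgG1 iGC 9 of 10 (32.4%), H2-DMa being the exception in both. H2-Ob rose most, from 208, 172 and 168 CPM at D6, with log2 fold changes of 1.26 in both isotypes (SE 0.07 each). Cd74 rose from 5261, 4379 and 4480 CPM at D6, by 1.13 in IgE and 1.09 in IgG1 (SE 0.08 each). H2-Eb1 rose from 1227, 953.5 and 981 CPM, by 1.09 and 1.04, and H2-DMb1 from 65.0 ± 8.11 CPM, by 1.01 and 0.98. H2-Oa rose by 0.88 and 1.04, H2-Ab1 by 0.76 in both, H2-Aa by 0.60 and 0.57 and H2-DMb2 by 0.30 and 0.25. Ciita rose less, by 0.36 (SE 0.14, edgeR adjusted p = 0.0322) and 0.57 (SE 0.14). The IgE iGC call of Ciita was lost under total-count scaling and without the low-count filter, and also without D6 replicate 2 or 3 or IgE iGC replicate 1 or 2 (adjusted p from 0.0676 to 0.116). H2-DMa differed from D6 by 0.08 (95% interval -0.04 to 0.20) in IgE iGC and by 0.12 in IgG1 iGC, where it missed the threshold (edgeR adjusted p = 0.0714). H2-DMa was called higher in both when only the groups compared were fitted (0.14 and 0.18), and in IgG1 iGC also without D6 replicate 1 (0.17, adjusted p = 0.0215). The H2-DMb2 call in IgG1 iGC was lost under total-count scaling (0.20). D6 replicate 1 was the highest D6 library for each of the 10 genes. The D6 libraries were unsorted, and the feeder marker sums were higher there, as given above; their part in these differences was not tested.

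Against the same D6 libraries, plasma cells of the isotypes gave different pictures. IgE PC were lower than D6 for 9 of 10 genes (39.5% of all genes called lower), led by Ciita (-3.12, SE 0.16), H2-DMb2 (-1.88) and H2-Oa (-1.83), and higher for Cd74 alone (0.67, SE 0.08; 36.9% called higher). In IgG1 PC 4 genes were called higher than at D6 (35.9% of all genes), Cd74 (0.97), H2-Eb1 (0.59), H2-Ab1 (0.52) and H2-Ob (0.23), and 3 lower (36.0%), Ciita (-0.89), H2-DMb2 (-0.69) and H2-DMa (-0.62). H2-Aa (0.05, 95% interval -0.10 to 0.21), H2-DMb1 (0.01, -0.14 to 0.17) and H2-Oa (-0.01, -0.16 to 0.15) were not called. Without D6 replicate 1 H2-Aa was called higher (0.17, adjusted p = 0.0148). The H2-Ob call was lost without D6 replicate 2 (adjusted p = 0.059) or 3 (0.064) and in a fit of these groups alone (0.0584). Total-count scaling moved the median over all genes in this comparison from 0.01 to -0.27; with it H2-Aa (-0.23), H2-DMb1 (-0.27) and H2-Oa (-0.29) were called lower, H2-Ob changed sign to -0.05, and Cd74 in IgE PC fell to 0.14 (adjusted p = 0.0607).

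Because the genes fell by different amounts, the make-up of the set changed. Levels of different genes were compared as TPM. In IgE iGC the order of mean TPM was Cd74 (14030), H2-Aa (4607), H2-Eb1 (3175), H2-Ab1 (3042), H2-DMb2 (844), H2-DMa (460.5), H2-Ob (374.9), H2-Oa (239), H2-DMb1 (168) and Ciita (139). In IgE PC it was Cd74 (6112), H2-Aa (899.5), H2-Ab1 (783), H2-Eb1 (573.5), H2-DMb2 (112), H2-DMa (91.2), H2-Ob (70.4), H2-DMb1 (23.9), H2-Oa (21.9) and Ciita (7.49). H2-Eb1 and H2-Ab1 thus changed places, as did H2-DMb1 and H2-Oa; the IgE PC libraries of the latter pair overlapped. Summed over the 10 genes, class II made up 27080 ± 186 TPM in IgE iGC, 26840 ± 500 in IgG1 iGC, 15880 ± 1693 at D6, 14390 ± 919 in IgG1 PC and 8694 ± 266 in IgE PC (mean ± SD, n = 3 each). Immunoglobulin genes took 33.4% to 42.5% of the TPM in PC and at most 3.92% elsewhere, which lowers every other TPM there; rescaled without them the sums were 22540 in IgG1 PC and 14700 in IgE PC, against 27670 and 28160 in the iGC groups. Ratios between genes of a library are free of this.

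For each H2-Ab1 transcript there were 4.61, 4.62 and 4.61 Cd74 transcripts in IgE iGC and 8.02, 7.61 and 7.81 in IgE PC. IgG1 iGC had 4.54, 4.57 and 4.37, and IgG1 PC 5.32, 4.96 and 4.85. D6 had the lowest ratios, 3.46, 3.74 and 3.78. IgE PC stood above every other group without overlap, and IgG1 PC above the iGC groups. The ratio of H2-Aa to H2-Ab1 ran the other way, from 1.75 ± 0.03 at D6 through 1.51 ± 0.02 in IgE iGC and 1.497 ± 0.041 in IgG1 iGC to 1.26 ± 0.09 in IgG1 PC and 1.15 ± 0.03 in IgE PC; the iGC groups overlapped and the PC groups did not.

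H2-O transcripts made up 19.6%, 18.8% and 18.4% of the summed H2-DM and H2-O TPM at D6. The share was 29.6%, 29.2% and 29.5% in IgE iGC and 30.5%, 30.5% and 30.7% in IgG1 iGC. In plasma cells it was 29.4%, 28.0% and 29.4% for IgE and 30.1%, 30.0% and 30.1% for IgG1. D6 therefore lay apart from all day 8 groups, while IgE PC overlapped IgE iGC and each IgG1 PC library lay just below the IgG1 iGC libraries.

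**Figure D3:**
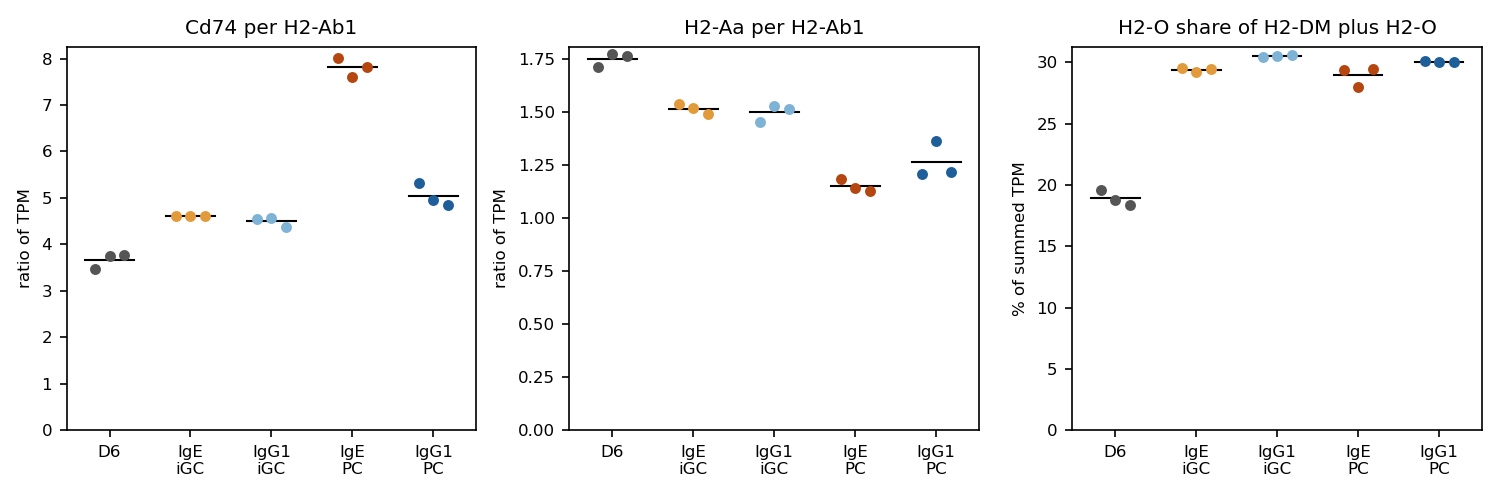
Ratios within the set, computed from TPM for each library (points; bars are means of 3; axes start at 0): Cd74 per H2-Ab1, H2-Aa per H2-Ab1, and H2-O as a percentage of H2-DM plus H2-O. IgE PC libraries reach 7.61 to 8.02 Cd74 per H2-Ab1, above all others, and D6 alone has an H2-O share under 20%.

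Genes that act on class II were read from lists of factors of its promoter and of Ciita (16 genes) and of endosomal processing and turnover (12). Of the 16 regulators, 4 were called higher (30.5% of all genes) and 9 lower (33.6%) in IgE PC than in IgE iGC, and 4 higher (30.1% of all genes) and 10 lower (29.0%) in IgG1. The largest changes were the same genes in both isotypes: Prdm1 (5.23 in IgE, 5.63 in IgG1) and Irf4 (4.49 and 3.86), a factor of plasma cell differentiation, rose, while Pax5 (-2.45 and -1.46) and Ebf1 (-2.23 and -1.41), factors of B cell identity, fell. The Prdm1 interaction of -0.40 was not called, and Prdm1 stood at 225 CPM in IgE PC and 198 in IgG1 PC on average (difference 0.19, not called). In iGC cells Prdm1 averaged 5.895 CPM in IgE and 3.985 in IgG1, and was called higher in IgE (0.59, edgeR adjusted p = 0.0416). Pax5 (-0.99) and Ebf1 (-0.82) fell further in IgE, as called by the interaction, and Irf4 (0.64) and Rfxap (0.53) had the largest positive interactions. The RFX subunits, chosen after their values were seen, split: Rfx5 fell by 1.54 in IgE and by 1.22 in IgG1 on the log2 scale, while Rfxap and Rfxank rose, by 0.85 each in IgE and by 0.32 and 0.57 in IgG1.

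Of the 12 endosomal genes, 6 were called higher and 5 lower in IgE PC than in IgE iGC (30.5% and 33.6% of all genes), and 6 higher and 6 lower in IgG1 (30.1% and 29.0%). Marchf1, a ubiquitin ligase that removes class II from the surface, had means of 159 CPM in IgE iGC, 8.74 in IgE PC, 172 in IgG1 iGC and 34.9 in IgG1 PC, and fell by 4.18 in IgE and by 2.29 in IgG1 on the log2 scale. Marchf8, a relative with an overlapping range of targets, rose by 2.90 and 2.27, to 24.04 and 13.2 CPM. Cd83, which protects class II from MARCH1, changed by -2.18 in IgE and by -1.18 in IgG1. Ifi30, a lysosomal thiol reductase that opens disulphide bonds of antigens, changed by -2.01 and -1.06. The proteases Ctsl (1.60 in IgE, 1.89 in IgG1) and Ctsd (1.70 and 1.40) were called higher in PC of both isotypes. After the Marchf genes, Cd83 and Ifi30 changed most in IgE, and Ctsl and Ctsd in IgG1. The interaction was called for 5 of the 12, near the 42.9% of all genes called in either direction, led by Marchf1 (-1.89), Cd83 (-0.99), Ifi30 (-0.94) and Sppl2a (0.89), the protease that clears the remnant of CD74 in B cells.

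Class I presentation genes mostly moved the other way. Of 14, 10 were called higher and 1 lower, Psmb10 (-0.28), in IgE PC than in IgE iGC (30.5% and 33.6% of all genes), and in IgG1 9 were called higher (30.1%) and the other 5 were not called. The medians were 0.71 and 0.53 on the log2 scale. The largest rises were those of the chaperones Pdia3 (2.84 in IgE, 1.83 in IgG1) and Calr (2.82 and 1.89). Both also serve the folding of other secretory proteins. Next came Tapbpl (2.16 and 1.75), a peptide editor, and H2-K1 (1.34 and 1.21), a class I heavy chain whose reads resemble those of its relatives. The interaction was called positive for 4 of the 14 (19.8% of all genes) and not called for the other 10.

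**Figure D4:**
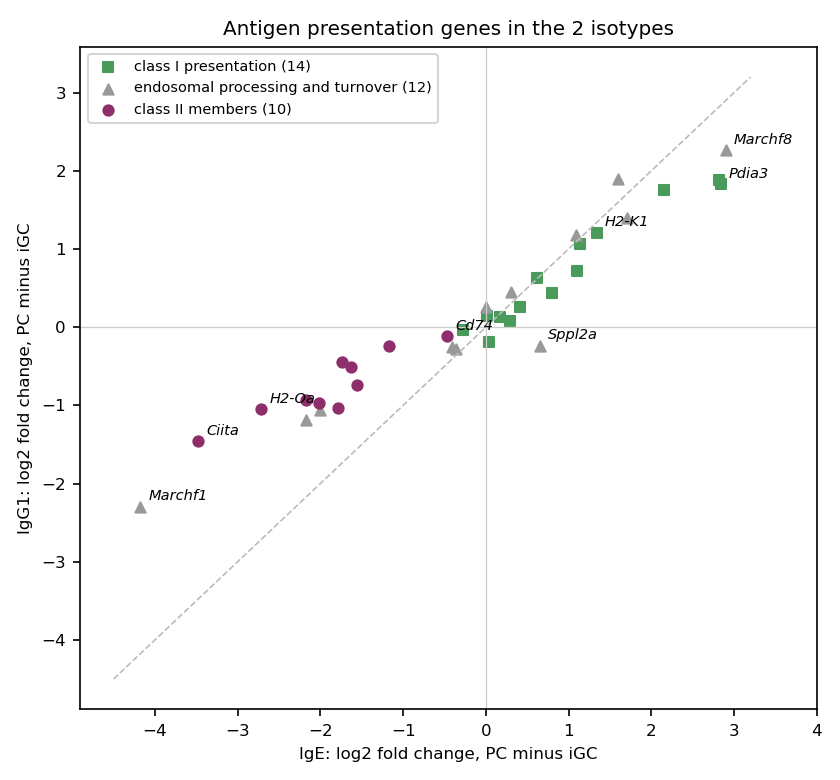
Log2 fold change from iGC to PC in IgE (x) against IgG1 (y) for the class II genes, the class I list and the endosomal list, 1 point per gene; the dashed line marks equal change. Class II points lie left of 0 and above the line, from Cd74 near 0 to Ciita at -3.48 and -1.45, and class I points mostly lie to the right of 0.

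Likeness to other genes was measured as Pearson's r of log2 CPM over the 15 libraries, among 8200 genes outside the set with a mean of at least 10 CPM; the libraries fall into 5 groups, so r mostly reflects group means and is given as a description. Among the nearest to Ciita were Cotl1 (0.998), Bri3bp (0.997), Fam167a (0.995) and Itsn1 (0.994). Cotl1 averaged 406.7 CPM in IgE iGC, 217 in IgG1 PC and 68.0 in IgE PC. Nearest to H2-Ab1 were Rpl3 (0.988), Akr1b3 (0.987), Selenoh (0.979), Myo1f and Slc25a11. Within the set, Ciita was nearest to H2-DMb2 (0.993) and farthest from Cd74 (0.148).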

How the data were processed

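RNA-seq libraries (polyA RNA, stranded, single-end 76-base reads, per the labels' protocols) were analysed in 5 groups of 3, grouped by title. The authors deposited, per the file headers, RSEM expected counts and TPM values per gene; expected counts need not be whole and TPM allows for length. The submitters' processing notes list cutadapt 1.9.1, STAR 2.5.2a, RSEM 1.3.0, DESeq2 1.12.3 and GRCm38, without roles; the annotation and strand setting are not given in the sources used here. Every per-sample column matched 1 title.

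Expected counts were rounded, filtered (filterByExpr, minimum count 10, minimum total 15), TMM-scaled and fitted with 1 mean per group over all 15 libraries (edgeR 4.0.16, glmQLFit with robust dispersion and glmQLFTest, R 4.3.3), which left 10 residual degrees of freedom. A gene was called where its p, adjusted by Benjamini and Hochberg over all 15692 genes, was under 0.05. SE is the log2 fold change divided by the square root of F. Alternatives were RLE and total-count scaling, no filter, DESeq2 1.42.0, only the groups compared, a replicate block and leaving out each library. Positions and 76-base stretches came from GENCODE vM21, promoters from RefSeq (GRCm38.p6).

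The genes, lists and tests were chosen with earlier results of these data known. All 10 class II genes are named, and of other lists up to 4 called genes with the largest change per contrast. Psmb10, Sdc1, Csf1r, Flt3, Zbtb46, Adgre1, Lyz2, Itgax, Itgam, Thy1, Cd79a and the RFX subunits were added after their values were seen. Likeness left out immunoglobulin and T cell receptor segments, predicted gene models and Riken clones. A marker and a gene of the likeness ranking are not reported here. Replicate numbers are shared by all groups without a stated pairing, so the reported fit has no block.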

Additional observations from a re-analysis of the deposited data

Results flagged for a closer look

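For each of the 10 class II genes the step to PC was of different size in IgE and IgG1, by the interaction test of edgeR. The IgE change minus the IgG1 change, on the log2 scale, was -2.03 for Ciita, -1.12 for H2-Aa, -0.92 for H2-Ab1, -1.28 for H2-Eb1 and -0.35 for Cd74. It was -0.82 for H2-DMa, -1.05 for H2-DMb1, -1.24 for H2-DMb2, -1.67 for H2-Oa and -0.76 for H2-Ob. Of all genes tested 23.1% were called with a negative value. The call for Cd74 was lost without IgE PC replicate 3 (adjusted p = 0.0501) or IgG1 iGC replicate 3 (0.0577).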

How the results depend on the processing

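Of 1140 values of single genes under alternatives, 1110 kept their side of the threshold, and 18 lost and 9 gained a call in an unchanged direction. A change of direction was counted only where the gene was called in the reported fit or in the alternative. There were 3, all under total-count scaling between IgG1 PC and D6: H2-Aa (-0.23), H2-DMb1 (-0.27) and H2-Ob (-0.053). Changes of direction among values called in neither fit were not counted. That scaling moved the median of all genes to -0.55 and -0.22 for the step to PC in IgE and IgG1 and to -0.57 and -0.27 for PC against D6. The 10 falls in IgE PC against IgE iGC and against IgG1 PC were called under every alternative run.

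Between the iGC groups 607 genes were called; fitting these groups alone gave 1503 genes and 2 of the 10, DESeq2 gave 937 genes, and leaving out 1 library gave 323 to 403. The cause was not tested. With the replicate block the counts among the 10 were unchanged in all 9 contrasts (10, 9, 10, 10, 0, 9, 9, 10 and 7), and 580 genes were called between the iGC groups. The mean correlation between deviations from group means in libraries with 1 number was -0.0145, with every pair over 0.1 in 0 of 10 pairs of groups, so the numbers were not taken as pairs.

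From expected counts in place of TPM, which drops the length term, the H2-O share was 22.2% at D6, 34.1% in IgE iGC, 35.2% in IgG1 iGC, 33.6% in IgE PC and 32.7% in IgG1 PC, so the PC groups changed order. Cd74 per H2-Ab1 was 3.86, 4.97, 4.82 and 8.08 at D6, in IgE iGC, IgG1 iGC and IgE PC, and H2-Aa per H2-Ab1 was 1.65, 1.47, 1.44 and 1.07. In IgG1 PC both ratios stayed within the SD of their TPM values, 5.04 ± 0.24 and 1.26 ± 0.09. Summed TPM without immunoglobulin genes was 28160 in IgE iGC, 27670 in IgG1 iGC, 14700 in IgE PC and 22540 in IgG1 PC.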

Other observations

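Of the other class II genes of the region, H2-Eb2 fell from IgE iGC to IgE PC by 1.52 on the log2 scale and from IgG1 iGC to IgG1 PC by 1.09, with an interaction of -0.43, all called by edgeR. H2-Ea, which would encode the alpha chain partner of H2-Eb1 and is a polymorphic pseudogene in the reference annotation (named H2-Ea-ps, chr17:34341959-34344645), had 0 to 4 counts in every library. At D6 it had 0 counts in all 3 libraries, which allows up to 3 counts, or 0.0865 CPM of the unscaled total in the smallest of them, while H2-Eb1 averaged 1054 CPM there.

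H2-DMb2 made up 88.8% ± 0.62 of the TPM of both beta chain copies of H2-DM at D6 and 83.4% ± 0.41 in IgE iGC, 83.1% ± 0.16 in IgG1 iGC, 82.4% ± 0.88 in IgE PC and 83.0% ± 0.51 in IgG1 PC (mean ± SD, n = 3 each). D6 lay apart from the day 8 groups; reads shared by the copies were divided by RSEM, and the part of that division in the difference was not tested.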
